A study of Mus musculus with 4 samples.

Results

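The S100 genes encode small calcium-binding proteins, and 10 of them were listed here: S100a1, S100a3, S100a4, S100a6, S100a8, S100a9, S100a10, S100a11, S100a13 and S100b. A gene was kept where some row of the array table was annotated to it and to no other gene, and the brightest such row on average stood for a gene with several. Of the 10, 9 had such a row and each had 1, out of 14860 named genes in all, and S100a11 was not analysed here. The genes were chosen by their family name and with the JQ1 and DMSO signals of this same comparison known, and rows were selected on their mean signal over the 4 arrays. The members' differences are therefore a description, and no test over the list was made.

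The study treated mouse CD4 T cells with JQ1, a small molecule that binds the bromodomains of the BET proteins and displaces them from acetylated chromatin, while they differentiated toward the IL-17-producing helper type known as TH17. The first group received 150 nM JQ1 and the second the solvent DMSO, with 2 arrays each, both from C57BL/6 mice and both at 48 hours. All cells were naive CD4 T cells from spleen, bead-purified to a purity above 90%, and were stimulated with beads carrying antibodies to CD3 and CD28. Every culture also held TGF-β1 at 5 ng/ml, IL-6 and IL-23 at 20 ng/ml each, with IFN-γ and IL-4 blocked by antibodies at 10 μg/ml each. The titles call the groups BETi and untreated and give 48 hours, which is used here, although the protocol also mentions 4 days of stimulation. Whether the replicates were separate animals or cultures is not said, so a p-value reflects only how far these samples scatter, and that scatter may be technical. With 2 arrays a group, the smallest two-sided p that an exact permutation test allows is 0.333, and the number of arrays limits the precision of every value.

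S100 proteins carry a pair of EF-hand calcium-binding loops and mostly work as dimers that expose a binding face for a partner protein when calcium rises. Inside cells they act on the cytoskeleton, on annexins and on calcium handling. S100a8 and S100a9 form a heterodimer that is abundant in neutrophils and monocytes and is released as an alarm signal. In T cells, S100a4, S100a6, S100a10 and S100a11 are known as transcripts of activated and memory cells. All members but S100b lie on mouse chromosome 3 (8 members), and S100b lies on chromosome 10. On chromosome 3, S100a1, S100a13, S100a3, S100a4, S100a6, S100a8, S100a9 and S100a10 follow each other in this order. Other genes lie between them, other S100 genes among these. The order is that of RefSeq, assembly GRCm38.p6.

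The start regions of 4 members are shown because these genes lie close together on chromosome 3 and differed in direction: S100a6 and S100a4 had lower means with JQ1, S100a8 and S100a9 higher ones, with overlapping arrays for S100a8. S100a3, which lies between S100a13 and S100a4 and was at -1.27, has 4 annotated starts and is not shown. Each is the 250 bases before the RefSeq start (GRCm38.p6), read 5′ to 3′ on the gene's strand. The positions are chr3:90612644-90612893 on the plus strand for S100a6, chr3:90603520-90603769 on the plus strand for S100a4, chr3:90668821-90669070 on the plus strand for S100a8 and chr3:90695722-90695971 on the minus strand for S100a9. Capitals mark matches, on either strand, to TATAAA (the TATA box), TGANTCA (AP-1), CACGTG (an E-box), TTCNNNGAA (STAT factors) and GGGCGG (the GC box), letters that do not overlap one another in these windows.
S100a6: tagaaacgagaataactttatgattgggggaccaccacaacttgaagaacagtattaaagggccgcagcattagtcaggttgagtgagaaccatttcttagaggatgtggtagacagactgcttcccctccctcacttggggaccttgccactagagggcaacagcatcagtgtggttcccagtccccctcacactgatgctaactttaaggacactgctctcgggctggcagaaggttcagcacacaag
S100a4: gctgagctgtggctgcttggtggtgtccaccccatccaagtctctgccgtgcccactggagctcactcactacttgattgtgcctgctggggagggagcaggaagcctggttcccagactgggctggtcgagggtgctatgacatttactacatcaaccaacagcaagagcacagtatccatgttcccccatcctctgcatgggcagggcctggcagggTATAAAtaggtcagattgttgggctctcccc
S100a8: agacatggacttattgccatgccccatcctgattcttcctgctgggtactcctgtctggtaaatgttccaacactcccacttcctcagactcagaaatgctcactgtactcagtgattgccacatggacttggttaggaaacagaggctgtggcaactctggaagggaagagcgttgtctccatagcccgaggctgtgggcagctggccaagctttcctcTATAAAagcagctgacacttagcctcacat
S100a9: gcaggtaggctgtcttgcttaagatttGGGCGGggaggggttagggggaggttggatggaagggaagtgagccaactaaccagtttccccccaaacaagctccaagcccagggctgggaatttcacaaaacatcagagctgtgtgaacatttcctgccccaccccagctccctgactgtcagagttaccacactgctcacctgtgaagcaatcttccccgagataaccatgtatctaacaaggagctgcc

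The whole windows of 300 bases, which reach 50 bases past the start, were searched for the same letters. Of the 9 measured members 8 had a window, and the 4 annotated starts of S100a3 brought the number to 11 windows. TATAAA stood 31 bases before the start of S100a4, 30 bases before that of S100a8, 52 bases before 1 start of S100a3 and at base 1 after the annotated start of S100a9. It was in 13.6% of the 32817 mouse windows. CACGTG was in the window of S100a6 alone among the members, at base 15 after its start, against 7.15% of all windows. GGGCGG was in windows of S100a3 and S100a9, against 35.6% of all windows. TGANTCA (7.81% of all windows) and TTCNNNGAA (8.29%) were in no member window. TATAAA was thus present both in genes that were lower and in genes that were higher with JQ1. A match describes letters only. S100a1 and S100a13 start on opposite strands, and their windows share 204 bases.

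Values are log2 signals, differences are JQ1 minus DMSO on that scale with limma's moderated standard error (SE) and 95% interval, and folds are these differences turned back to the linear scale. The signal of a row depends on its probes, so levels are not compared between genes. As a guide to dim rows, 800 olfactory and vomeronasal receptor genes, which T cells are not known to use, had means with a 95th percentile of 5.80. This is called the receptor reference below. Of the 9 members, 6 were above it in both groups, 8 in at least 1 group, and S100a1 in neither.

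Of the cell markers, all 9 measured T cell markers (Lck was not analysed here) and 5 of 6 measured TH17 markers were above the receptor reference. The exception was Il23r. All 6 TH17 markers had both JQ1 arrays below both DMSO arrays, beside 31.4% of all genes. All 6 were also lower at an unadjusted p below 0.05 in limma, against 8.26% of all genes. Their median difference was -1.57, and none passed after adjustment over all genes. Il17f, which encodes the cytokine IL-17F, had 7.65 and 8.22 with JQ1, against 11.51 and 11.17 with DMSO, a 10.6-fold lower signal (limma adjusted p = 0.0901). The lower S100 signals below thus stood beside lower TH17 markers, whose part in them was not tested. Across all genes Pearson r was 0.982 between the JQ1 arrays, 0.981 between the DMSO arrays and 0.976 to 0.980 between groups, as a description over genes that are not replicates. The median difference of all genes was -0.09, and the members' differences lie 0.09 above the printed values when taken relative to it. After centring each array on its median this median was 0.03.

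Of the 9 members, 5 had both JQ1 arrays below both DMSO arrays: S100a3, S100a4, S100a6, S100a10 and S100a13. The same held for 31.4% of all 14860 genes, and for 38.6% of the 8505 genes above the receptor reference in at least 1 group. S100a9 had both JQ1 arrays above both DMSO arrays, as did 10.0% of all genes and 9.54% of the brighter ones. The arrays of the groups overlapped for S100a1, S100a8 and S100b. The members' median difference was -0.41. With Benjamini-Hochberg adjustment across all 14860 genes, no member passed limma's test (adjusted p from 0.0901 to 0.948), where 1 gene in all did (0.00673%, or 0.0118% of the brighter 8505). At an unadjusted p below 0.05 stood 5 members as lower, against 8.26% of all genes and 11.3% of the brighter ones, and 1 as higher, against 1.72% and 1.56%. The lean of all genes to the lower side depended on scaling. Of genes whose groups did not overlap, 75.8% were lower with JQ1 in the deposited values, 46.0% after a further quantile normalization, 43.0% after centring and 49.2% after cyclic loess. The same count over the members stayed at 5 of 9 under each of these scalings, while the share of all genes was 18.6%, 17.2% and 19.8% in that order.

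**Figure D1:**
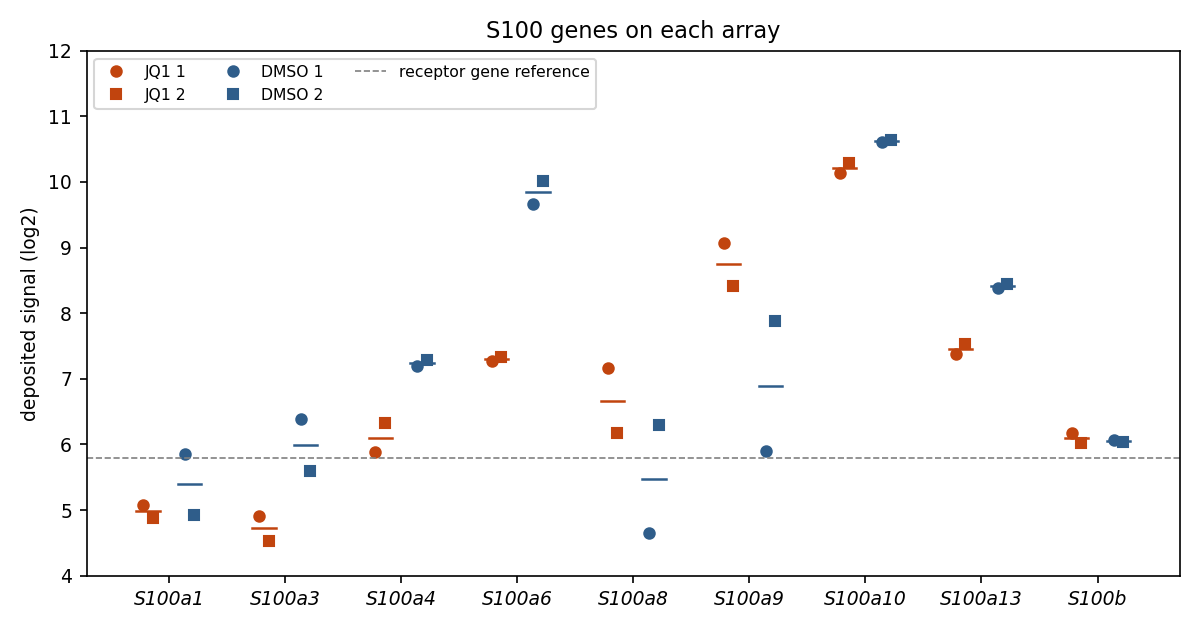
Deposited log2 signal (y axis) of the 9 S100 genes (x axis) on each array, JQ1 in red to the left and DMSO in blue to the right, with short lines at the group means and a dashed line at the receptor reference of 5.80. S100a6 shows the widest gap between groups, with JQ1 arrays at 7.27 and 7.34 and DMSO arrays at 9.66 and 10.02, while S100a8 and S100a9 spread between replicates.

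S100a6, also named calcyclin, binds the ubiquitin ligase adaptor Cacybp and several annexins. S100a6 (Entrez gene 20200) had log2 signals of 7.27 and 7.34 with JQ1, against 9.66 and 10.02 with DMSO. Both JQ1 arrays lay more than 2 log2 units below either DMSO array, with a gap of 2.32 between the closest arrays of the groups. Its difference was -2.54 (SE 0.18, interval -2.99 to -2.09), a 5.80-fold lower signal (interval 4.25 to 7.92). In rank it was number 5 of 14860 genes from the lowest difference. The adjusted p over all genes was 0.0901 in limma, which did not pass. It passed in 3 of the alternatives: with a variance trend (limma adjusted p = 0.0368) and among genes above the 25th percentile (0.0156) or the median (0.00448) of signal. Over all alternatives it ran from 0.00448 to 0.447. The difference stayed between -2.72 and -2.35 in each of them. Since this is RNA of bulk cells, fewer cells with the transcript and less of it per cell cannot be told apart, here and for each member below.

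S100a4 binds the heavy chain of non-muscle myosin IIA and is known as a marker of motile cells. Its log2 signals were 5.89 and 6.32 with JQ1, against 7.19 and 7.28 with DMSO. The groups did not overlap, and the closest arrays were 0.87 apart. The difference of S100a4 was -1.13 (SE 0.19, interval -1.62 to -0.65), a 2.19-fold lower signal, with a limma adjusted p over all genes of 0.227. S100a3, a neighbour of S100a4 best known from the hair cuticle, had 4.91 and 4.53 with JQ1, against 6.38 and 5.59 with DMSO. Its JQ1 arrays and the second DMSO array lay under the receptor reference. The difference of S100a3 was -1.27 (SE 0.30), a 2.40-fold lower signal (limma adjusted p = 0.337), and the DMSO arrays differed from each other by 0.80.

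S100a13 takes part in the release of FGF1 and IL-1α from cells by a route that avoids the secretory pathway. It had 7.37 and 7.53 with JQ1, against 8.39 and 8.44 with DMSO. Replicates lay close together, 0.16 apart with JQ1 and 0.051 with DMSO, and the groups were 0.86 apart at their closest. The difference of S100a13 was -0.96 (SE 0.15, interval -1.33 to -0.59), a 1.95-fold lower signal. Its limma adjusted p over all genes was 0.213, and among genes above the median signal it was 0.0470, which passed. S100a1, a regulator of calcium pumps and channels in heart muscle whose start region overlaps that of S100a13, had 5.07 and 4.89 with JQ1, against 5.86 and 4.93 with DMSO. All but the first DMSO array lay within 0.19 of each other, and the groups overlapped. Its difference was -0.41 (SE 0.32, interval -1.22 to 0.39), and without DMSO replicate 1 it was 0.054.

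S100a10, or p11, has lost calcium binding in its EF-hands and forms a stable complex with annexin A2 at the plasma membrane. S100a10 had 10.14 and 10.28 with JQ1, against 10.62 and 10.63 with DMSO. The groups did not overlap, but the step was small. Its difference was -0.41 (SE 0.15, interval -0.78 to -0.05), a 1.33-fold lower signal (limma adjusted p = 0.451). After the scalings it was -0.20 (quantile), -0.21 (cyclic loess) and -0.30 (centring). S100b, best known from astrocytes and other glial cells, had 6.18 and 6.02 with JQ1, against 6.06 and 6.03 with DMSO. The 4 arrays lay within the same narrow band. Its difference was 0.05 (SE 0.15), and the interval from -0.32 to 0.42 bounds what these arrays can show.

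**Figure D2:**
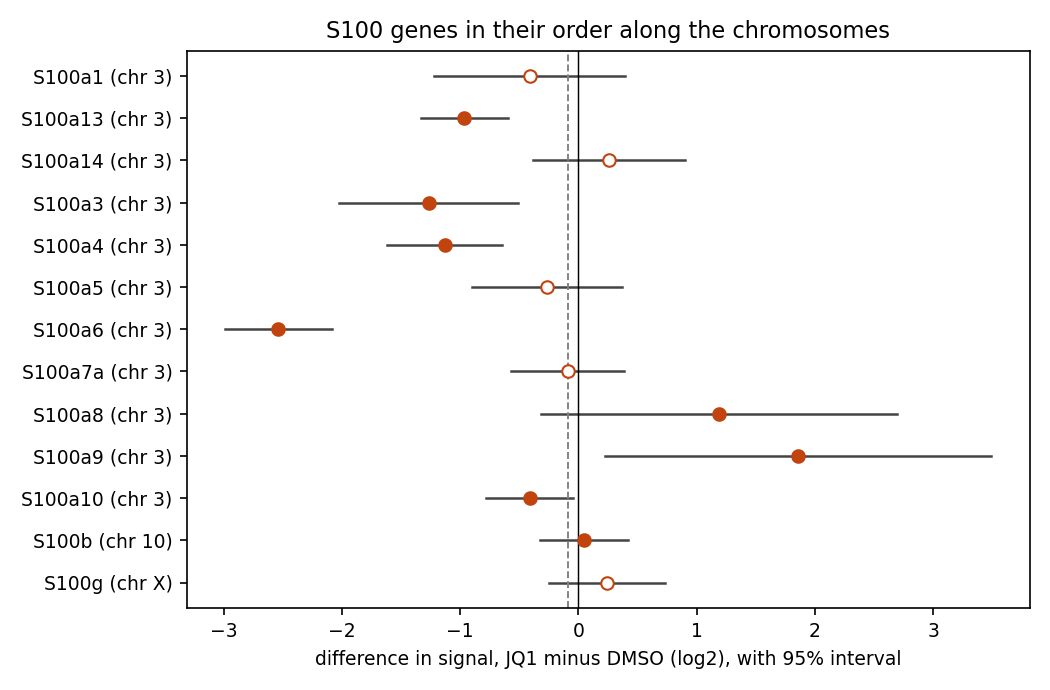
Difference in log2 signal, JQ1 minus DMSO (x axis), with limma's 95% interval for the 13 measured S100 genes (y axis), in their order along chromosome 3 and then S100b and S100g. Filled points are above the receptor reference in at least 1 group, open points in neither, the solid line marks 0 and the dashed line the median of all genes at -0.09; S100a3, S100a4 and S100a6 lie on the lower side, S100a8 and S100a9 on the higher side.

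S100a8 and S100a9, the subunits of calprotectin, were the members with the largest higher differences with JQ1 (S100b, at 0.05, was the only other above 0), and their replicates disagreed. S100a9 had log2 signals of 9.07 and 8.42 with JQ1, against 5.89 and 7.88 with DMSO. Both JQ1 arrays were above both DMSO arrays, yet the second DMSO array stood nearer to the JQ1 arrays than to its own replicate. The difference of S100a9 was 1.86 (SE 0.65, interval 0.22 to 3.49), a 3.63-fold higher signal, with a limma adjusted p of 0.448. Only 3 of the 14860 genes had a higher difference. The DMSO arrays lay 1.99 apart for S100a9, and a gap this wide was found for 0.209% of all genes, whose median gap was 0.19. Without DMSO replicate 1 the difference was 0.86, a 1.82-fold higher signal, and without DMSO replicate 2 it was 2.85.

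S100a8 had 7.16 and 6.17 with JQ1, against 4.66 and 6.30 with DMSO. The groups overlapped, since the second DMSO array was above the second JQ1 array. Its difference was 1.19 (SE 0.60, interval -0.31 to 2.69, limma adjusted p = 0.573). The DMSO arrays lay 1.65 apart, a gap found for 0.464% of all genes. The difference was 0.37 without DMSO replicate 1, 2.01 without DMSO replicate 2, 0.70 without JQ1 replicate 1 and 1.68 without JQ1 replicate 2. For both genes the first JQ1 array was the highest and the first DMSO array the lowest of the 4.

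Because calprotectin is abundant in neutrophils, the neutrophil markers were set beside it. Of 13 listed, 11 were measured, and 8 of the 11 were not above the receptor reference in either group, among them Mpo, Itgam, Csf3r and Mmp8. The log2 of their summed signal was 8.96 and 9.09 with JQ1, against 8.68 and 8.82 with DMSO. Without Ngp, which encodes a granule protein of neutrophils, it was 8.51 and 8.57 with JQ1, against 8.52 and 8.40 with DMSO. Ngp was picked by name for this. Of the 10 markers left, 8 were not above the receptor reference, so this sum rests largely on dim rows. Ngp itself had 7.08 and 7.38 with JQ1, against 5.49 and 6.82 with DMSO. Its lowest array was the first DMSO array, as for S100a8 and S100a9, and its DMSO arrays lay 1.33 apart. The difference of Ngp was 1.07 (SE 0.44, limma adjusted p = 0.506). Cxcr2, a chemokine receptor of neutrophils, was at -0.68 (SE 0.30). Over the 11 markers 4 were higher and 2 lower without overlap, beside 10.0% and 31.4% of all genes, with a median difference of 0.05. The 2 lower were Cxcr2 and Mpo (difference -0.20, SE 0.16). The groups overlapped for Elane (0.07, SE 0.17), Mmp8 (-0.10, SE 0.15) and Mmp9 (0.00, SE 0.14), which like Mpo encode granule proteins. Of Mpo, Elane, Mmp8 and Mmp9, Elane alone was above the receptor reference. The 4 higher were Ngp, Lcn2 (difference 0.76, SE 0.25), Camp (0.48, SE 0.14) and Ltf (0.32, SE 0.17). They too are genes of neutrophil granule proteins, and the last 3 were under the receptor reference in both groups. None passed limma's test over all genes, and 2 were higher at an unadjusted p below 0.05. On the higher side 1.72% of the 14860 genes reached that p. The part of neutrophil RNA in the values of S100a8 and S100a9 was not tested. Of 6 measured markers of macrophages and dendritic cells, none was without overlap between groups, beside 31.4% lower and 10.0% higher of all genes. Their median difference was -0.02, and Cd68, at -0.20 (SE 0.19), was alone above the receptor reference.

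**Figure D3:**
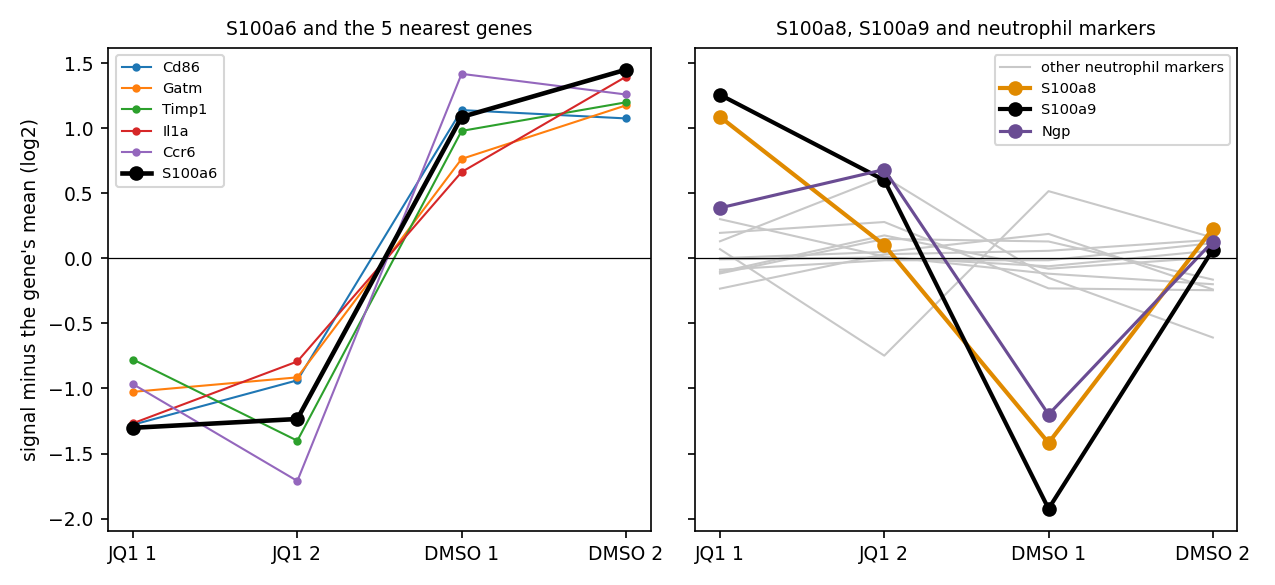
Log2 signal minus the gene's own mean over the 4 arrays (y axis) by array (x axis, JQ1 left, DMSO right), for S100a6 and the 5 genes nearest to it (left) and for S100a8, S100a9, Ngp and the other neutrophil markers (right). S100a6 and its neighbours are low on both JQ1 arrays and high on both DMSO arrays, while S100a8, S100a9 and Ngp are lowest on the first DMSO array.

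The genes whose pattern was most like that of S100a6 were sought over the 4 arrays by the Euclidean distance between mean-centred log2 signals, among 13658 genes without predicted genes and sensory receptors. The 5 nearest were Cd86, a co-stimulatory ligand (distance 0.48), Gatm, an enzyme of creatine synthesis (0.60), Timp1, an inhibitor of matrix metalloproteinases (0.61), Il1a, which encodes IL-1α (0.62), and the chemokine receptor gene Ccr6 (0.70). Cd86 had 3.83 and 4.17 with JQ1, against 6.25 and 6.18 with DMSO. Timp1 had 6.33 and 5.71 with JQ1, against 8.09 and 8.31 with DMSO. The differences of the 5 ran from -2.68 for Ccr6 to -1.94 for Gatm, beside -2.54 for S100a6. The 4 arrays share 2 groups, so the distance is set largely by the size of the difference between groups.

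**Figure D4:**
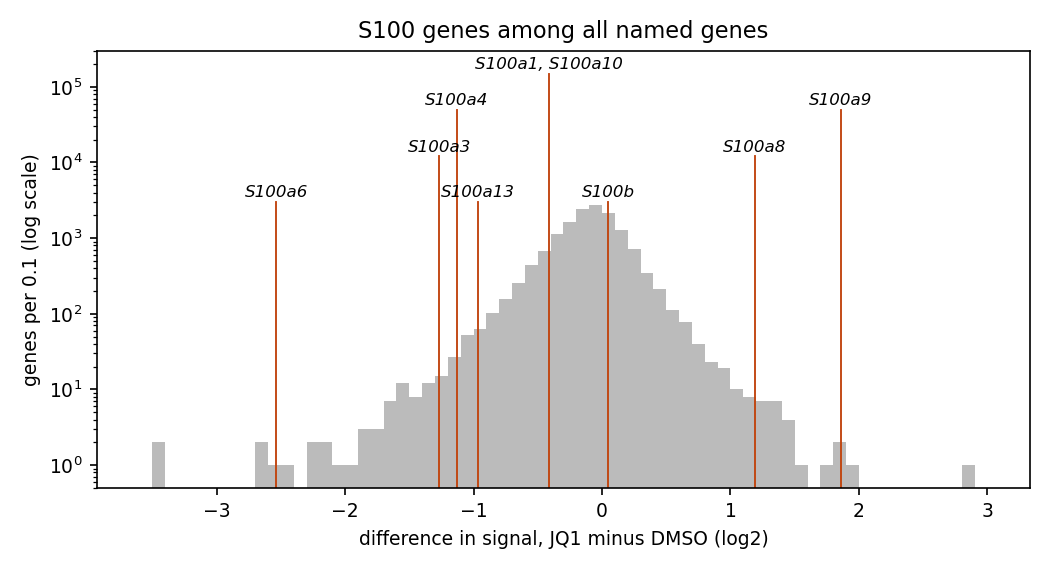
Number of genes per 0.1 log2 unit (y axis, log scale) by difference in signal, JQ1 minus DMSO (x axis), for all 14860 named genes, with the 9 S100 genes marked by red lines of arbitrary height. S100a6 at -2.54 lies far out on the lower side and S100a9 at 1.86 far out on the higher side, while S100b at 0.05 lies near the centre.

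Among 4 further measured S100 genes, S100a5, S100a7a, S100a14 and S100g, none was above the receptor reference and the groups overlapped for all. Their differences ran from -0.26 to 0.26. S100a5 lies between S100a4 and S100a6, and had 4.75 and 4.88 with JQ1, against 5.42 and 4.74 with DMSO. So dim a row cannot show whether the lower signals of its neighbours extended to it. S100a16 and S100z were not analysed here. Rptn and Tchhl1, members of the fused S100 type of skin proteins, were likewise not above the receptor reference, with overlapping groups.

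Intracellular partners of S100 proteins were measured for 13 of 14 listed. Both JQ1 arrays were below both DMSO arrays for 6 and above for 2, with a median difference of -0.15 beside -0.09 for all genes. The same held for 31.4% and 10.0% of all genes. None passed limma's test over all genes, and 3 were lower at an unadjusted p below 0.05, against 8.26% of all genes. Ppfibp1, liprin-β1, a scaffold protein that binds S100a4, had 7.03 and 7.13 with JQ1, against 8.92 and 8.48 with DMSO. The groups were clearly apart, with a difference of -1.62 (SE 0.20), a 3.07-fold lower signal (limma adjusted p = 0.194). Anxa2, the annexin that pairs with S100a10, had 6.22 and 6.42 with JQ1, against 7.21 and 7.35 with DMSO. Its difference was -0.96 (SE 0.16), a 1.95-fold lower signal (limma adjusted p = 0.227), larger in size than the -0.41 of S100a10. That difference between the pair was not tested. The next partners are named for their link to a member, after their values were seen. Myh9, the myosin that S100a4 binds, had 9.50 and 9.57 with JQ1, against 9.30 and 9.32 with DMSO, a difference of 0.23. Cacybp, the partner of S100a6, had 10.25 and 10.28 with JQ1, against 10.21 and 10.33 with DMSO, with overlapping groups.

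Receptors through which S100 proteins act outside cells were all measured (6 of 6). Both JQ1 arrays were below both DMSO arrays for 2 of them, close to the 31.4% of all genes, and above for none, against 10.0%. Their median difference was -0.06. None passed limma's test over all genes, and 1 was lower at an unadjusted p below 0.05, against 8.26% of all genes. Bsg, or basigin, a receptor for S100a9, was at -0.26 (SE 0.16) and Mcam at -0.04 (SE 0.15). Tlr4 and Cd36 lay under the receptor reference in both groups, as did Ly96, the co-receptor of TLR4. Ly96 had the difference of the largest size among the 6, -1.11 (SE 0.17, limma adjusted p = 0.213). It was the receptor gene that was lower at an unadjusted p below 0.05. Its signals were 3.76 and 3.45 with JQ1, against 4.77 and 4.66 with DMSO. Of the 6 differences, 4 were below 0, and that of Tlr4 was 0.29 (SE 0.20).

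Genes of activated and memory T cells that are commonly described alongside S100a4 and S100a6 were also examined. Of 8 measured, 7 had both JQ1 arrays below both DMSO arrays and 1, Vim, was above without overlap, beside 31.4% lower and 10.0% higher of all genes. All 8 belong to the brighter genes, whose shares were 38.6% and 9.54%. The median difference of the 8 was -0.53, 5 were lower at an unadjusted p below 0.05, and none passed limma's test over all genes. That p was reached on the lower side by 11.3% of the 8505 brighter genes and by 8.26% of the whole 14860. Emp3, a membrane protein, had 7.59 and 7.88 with JQ1, against 8.60 and 9.12 with DMSO, a 2.18-fold lower signal (difference -1.12, SE 0.23). Itgb1, the integrin β1 chain, had 8.34 and 8.52 with JQ1, against 9.39 and 9.15 with DMSO, a 1.79-fold lower signal (difference -0.84, SE 0.17). The T cell markers had a median difference of -0.15, with 3 of 9 lower without overlap, beside 31.4% of all genes and 38.6% of the brighter ones. The largest differences among them were -0.71 (SE 0.21) for Thy1 and -0.27 (SE 0.17) for Cd2. Of 4 measured markers of CD8 T and natural killer cells, 3 were lower without overlap (median -0.65), beside 31.4% of all genes. The summed log2 signal of the 4 was 7.11 and 7.63 with JQ1, against 8.30 and 8.19 with DMSO. Klrd1, a receptor chain of natural killer cells, was at -1.73 (SE 0.25) and Cd8a, the CD8 α chain, at -0.73 (SE 0.20), both above the receptor reference with DMSO only. Of 5 measured B cell markers 3 were lower without overlap (median -0.21), beside 31.4% of all genes. Cd79b was at -0.63 (SE 0.25) and Cd79a at -0.34 (SE 0.16). The summed log2 signal of the 5 was 7.70 and 7.60 with JQ1, against 7.88 and 7.97 with DMSO. The part of these cells in the S100 values was not tested. Of 5 measured platelet and red cell markers 1 was lower and 2 were higher without overlap, beside 31.4% and 10.0% of all genes. Their median was 0.11, with Itga2b at 0.15 (SE 0.23). Of 4 fibroblast markers 1 was lower without overlap, close to the 31.4% of all genes. Their median was -0.05, with Col1a2 at -0.07 (SE 0.16) and Col1a1 at 0.00 (SE 0.15).

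**Figure D5:**
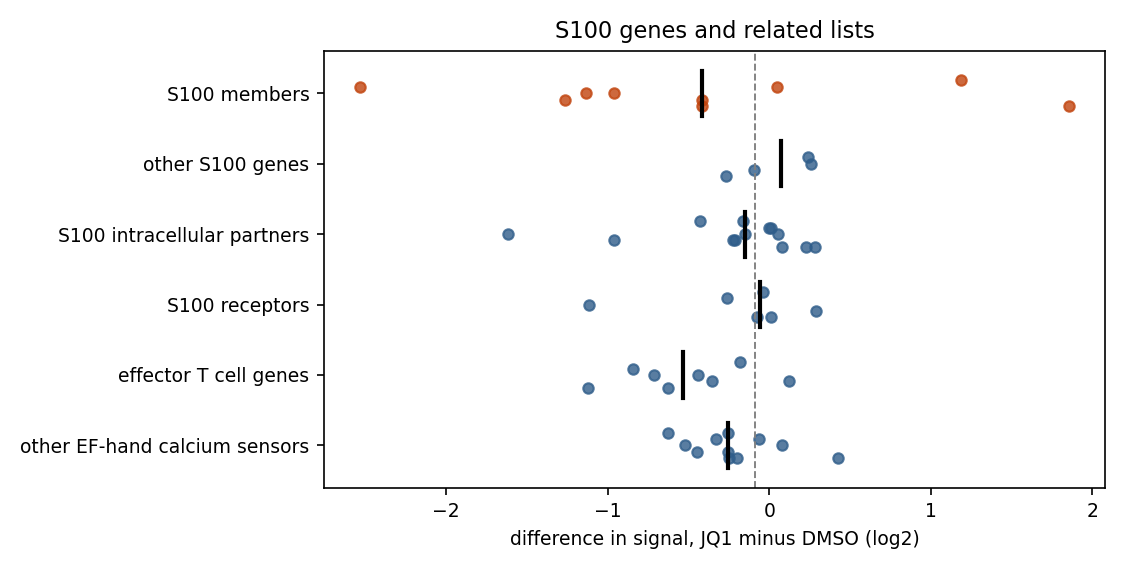
Difference in log2 signal, JQ1 minus DMSO (x axis), of each measured gene (points) of 6 gene lists (y axis), with black bars at each list's median and a dashed line at the median of all genes, -0.09. The S100 members span the widest range, from -2.54 to 1.86, and the genes of activated and memory T cells have a median of -0.53.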

How the data were processed

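RNA of 4 samples was read on Affymetrix exon arrays, 1 array each. The authors deposited log2 signals, made with RMA in Affymetrix Expression Console according to the submitters' processing notes. Those notes name hg19, a human build, for mouse samples. Software versions are not given in the sources here, and no label gives a slide or scan date.

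Of 23332 rows, a platform annotation gave 1 gene for 14996, several for 1019 and none for 7317, leaving 14860 genes, 135 of them with several rows. The test was limma 3.58.1 (lmFit and eBayes, two-sided) under R 4.3.3, with 3.43 prior beside 2 residual degrees of freedom. Adjusted p-values (Benjamini-Hochberg, all genes) had to be below 0.05. The script was tested on simulated data. Start regions are RefSeq's. Figures were drawn with matplotlib 3.10.9.

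The members and gene lists were chosen with earlier results of these data known, and the searched motifs after the members' values were seen. All members are named. Of each other list, the text names called genes or else the 2 largest differences among genes above the receptor reference. Further genes are named where a count or a link to a member called for it. Alternatives were a variance trend, a robust prior, 3 scalings, 2 filters on dim genes, the mean of a gene's rows, the replicate number as a block, and each array left out.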

Additional observations from a re-analysis of the deposited data

How the results depend on the processing

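The count of genes past the threshold, 1 in the fit as reported, was 3 with a variance trend, 50 above the median signal and 9 above the 25th percentile, all lower with JQ1. It was 0 with the replicate number as a block and 0 whichever array was left out, with 944 to 1549 genes at an unadjusted p below 0.05 in limma in those fits. The lone array of a group was then assumed to vary like the other group. S100a6 was among the genes called in each of the first 3 and S100a13 among those above the median signal. The number of members with both JQ1 arrays below both DMSO arrays, 5 as reported, was 5 to 7 with 1 array left out and 4 of the 7 members above the median signal. The share of all genes, 31.4% as reported, rose as well, to between 43.3% and 54.0% with 1 array left out. Among genes above the median signal it was 38.9%. The members' median difference ran from -0.88 to -0.42 with 1 array left out, the lowest being without DMSO replicate 2, and was -0.30 to -0.34 after the 3 scalings. With 1 array left out S100b ran from -0.031 (without JQ1 replicate 1) to 0.13, and S100a1 from -0.88 to 0.054 (without DMSO replicate 1), so both changed sign. The other 7 members kept their sign in every alternative run. No label pairs the replicates, and replicate deviations of the same number correlated at 0.0967 over all genes and 0.0426 above the median signal. The replicate block moved no member past the threshold, and the adjusted p of S100a6 was then 0.242.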

Other observations

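Other calcium sensors of the EF-hand type were measured for 11 of 18 listed, all above the receptor reference. Both JQ1 arrays were below both DMSO arrays for 7 and above for 1, beside 38.6% and 9.54% of all genes that bright, with a median difference of -0.26 (all genes -0.09) and none past limma's test over all genes (1 lower and 1 higher at an unadjusted p below 0.05). Capn2, the catalytic subunit of a calcium-activated protease, had 8.19 and 8.08 with JQ1, against 8.71 and 8.82 with DMSO (difference -0.62, SE 0.15). Pdcd6, a penta-EF-hand protein of membrane traffic and repair, was at -0.52 (SE 0.23). Their range, -0.62 to 0.43, was narrower than that of the S100 members.

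The nearest measured genes on either side of the members, leaving out genes with an S100 name, numbered 6, on chromosomes 3 and 10. Tchhl1, of the fused S100 type, was among them. Of the 6 genes, 1 was lower and 2 were higher without overlap, beside 31.4% and 10.0% of all genes. The differences of the 6 ran from -0.18 to 0.11. Of the 6, 2 were above the receptor reference.

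Among the genes of naive T cells, Il7r, the IL-7 receptor α chain, had 5.36 and 6.01 with JQ1, against 7.60 and 7.12 with DMSO (difference -1.68, SE 0.28). Klf2, a factor of resting T cells, had 7.24 and 7.44 with JQ1, against 7.09 and 6.68 with DMSO (difference 0.46, SE 0.20). Of 5 measured, 2 were lower and 2 higher without overlap, beside 31.4% and 10.0% of all genes.

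The 5 genes nearest in pattern to S100a9, a search added after its values were seen, were Dppa5a (distance 0.63), Dppa4 (0.66), S100a8 (0.75), Zc3h3 (1.02) and Chil3 (1.09). Dppa5a and Dppa4 are known from pluripotent cells, and Chil3 encodes a chitinase-like protein of neutrophils and macrophages. The 4 genes other than S100a8 were under the receptor reference on every array. Chil3 had 5.78 and 4.37 with JQ1, against 2.89 and 5.33 with DMSO.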
